A study of Mus musculus with 14 samples.

Results

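The Rab GTPase genes are the 59 protein-coding mouse genes whose symbol is Rab, a number and an optional letter. Each was followed through 1 H3K4me3 peak summit, the strongest summit (by mean over 13 libraries) inside the gene or within 2 kb of either end. Of the 59 genes, 55 had a summit that could be tested, among 15201 protein-coding genes with one. The other 4, Rab17, Rab25, Rab44 and Rab7b, had no summit inside the gene or within 2 kb. H3K4me3, a histone mark of gene starts, was measured by chromatin immunoprecipitation and sequencing in the whole prefrontal cortex. The mice were adult C57BL/6J males, 10 to 12 weeks old. Control mice (3 libraries) lived in divided cages and met no aggressor, and the other mice met an aggressive CD1 mouse they did not know every day for 10 days (SDS10, 5 libraries) or 30 days (SDS30, 5 libraries) and lived behind a perforated divider next to one. Cortex was taken 24 hours after the last encounter, with behavioural tests shortly before the end in the defeated groups. Whether each library stands for its own animal is not in the labels, and the p-values below measure the spread between libraries. The tissue was not sorted, so a lower share of a cell type and a lower level of the mark per cell cannot be told apart. An input library was not analysed here.

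Rab proteins are small GTPases that sit on membranes and mark each compartment of the cell's transport system. Exchange factors load a Rab with GTP, which lets it bind effectors that tether, move and fuse vesicles, and GTPase-activating proteins switch it off again. In neurons, Rab3 and Rab27 act in the release of synaptic vesicles and secretory granules, Rab5 and Rab4 in the uptake and fast return of receptors, Rab11 in slower recycling to dendritic spines, Rab7 on the way to the lysosome, and Rab1, Rab2 and Rab6 between the endoplasmic reticulum (ER) and the Golgi.

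The promoters of 5 Rab genes are shown because they span the range of levels described below and differ in CG dinucleotides, which are written in capitals. Rab4b and Rab5a were the highest members in control cortex, Rab9b was the lowest, and Rab3a and Rab3b are 2 paralogues at similar levels. Each run is the 250 bases before the annotated start in the RefSeq promoter table (GRCm38.p6), 5′ to 3′ on the gene's strand.
Rab4b, chr7:27178884-27179133, minus strand: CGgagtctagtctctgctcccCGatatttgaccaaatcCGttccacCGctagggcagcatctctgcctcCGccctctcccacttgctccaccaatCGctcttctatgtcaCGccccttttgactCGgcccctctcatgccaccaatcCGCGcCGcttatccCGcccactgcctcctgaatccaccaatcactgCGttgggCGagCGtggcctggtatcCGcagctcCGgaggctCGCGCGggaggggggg
Rab5a, chr17:53478984-53479233, plus strand: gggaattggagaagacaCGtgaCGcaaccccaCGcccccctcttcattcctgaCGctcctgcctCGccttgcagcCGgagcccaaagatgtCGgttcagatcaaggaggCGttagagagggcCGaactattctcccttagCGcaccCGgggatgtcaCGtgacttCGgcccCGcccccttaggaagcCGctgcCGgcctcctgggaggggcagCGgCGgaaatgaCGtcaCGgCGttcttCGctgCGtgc
Rab3a, chr8:70754453-70754702, plus strand: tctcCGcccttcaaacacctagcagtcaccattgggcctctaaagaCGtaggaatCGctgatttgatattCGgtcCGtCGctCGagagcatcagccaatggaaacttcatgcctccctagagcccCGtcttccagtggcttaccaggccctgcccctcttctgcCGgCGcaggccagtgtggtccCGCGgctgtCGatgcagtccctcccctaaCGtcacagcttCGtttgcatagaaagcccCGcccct
Rab3b, chr4:108878820-108879069, plus strand: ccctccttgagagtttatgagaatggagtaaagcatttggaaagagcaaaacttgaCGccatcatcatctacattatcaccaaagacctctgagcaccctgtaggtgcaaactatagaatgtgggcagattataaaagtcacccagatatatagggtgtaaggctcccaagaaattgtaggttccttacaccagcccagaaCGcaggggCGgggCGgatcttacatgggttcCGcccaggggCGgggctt
Rab9b, chrX:136868557-136868806, minus strand: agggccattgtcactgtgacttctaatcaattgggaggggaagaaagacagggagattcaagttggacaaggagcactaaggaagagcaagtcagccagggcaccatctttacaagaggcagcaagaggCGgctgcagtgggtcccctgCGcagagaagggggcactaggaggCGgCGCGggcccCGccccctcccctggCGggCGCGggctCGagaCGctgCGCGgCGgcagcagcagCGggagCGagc
These stretches hold 20 CG dinucleotides at Rab4b, 23 at Rab5a, 16 at Rab3a, 6 at Rab3b and 16 at Rab9b. The strongest summit lay inside the gene, a short way past the start, in all 5: 119 bp at Rab4b, 640 bp at Rab5a, 110 bp at Rab3a, 123 bp at Rab3b and 118 bp at Rab9b.

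In control cortex the 55 Rab genes had a median of 102.2 ± 1.70 normalised reads at their summit (SD, n = 3 libraries), beside 97.7 ± 1.20 over all coding genes with a summit. A normalised read is a read at the summit divided by the library's size factor, as the authors deposited it. Their median percentile among coding genes was 53.4. Levels ran from 182 ± 36.1 at Rab4b, which returns receptors from early endosomes to the surface, to 38.8 ± 3.94 at Rab9b, a relative of the late endosomal Rab9 (SD, n = 3 each), a ratio of 4.70. The order between neighbours was not resolved: of 54 neighbouring pairs, only Rab9 and Rab39b stood apart by more than 1 SD. Within groups, the SD of a member's log2 value had a median of 0.234, near the 0.238 of all coding genes, with Rab13 lowest at 0.119 and Rab9b highest at 0.484.

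**Figure D1:**
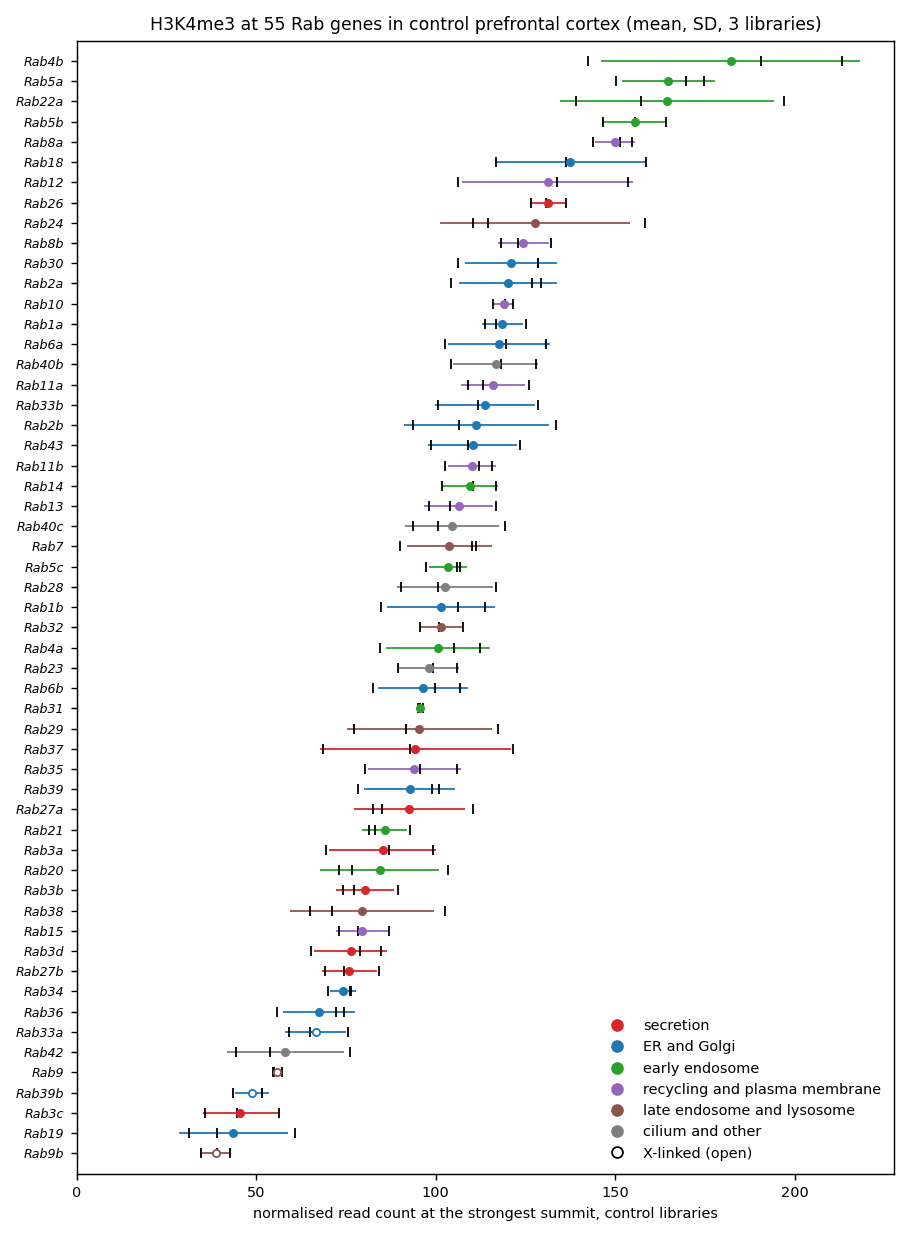
Mean normalised read count (x axis) of the strongest H3K4me3 summit at 55 Rab genes in the 3 control libraries. Dots are means, lines are SD, ticks are single libraries, colours are the role of the Rab, and open dots are X-linked genes. Rab4b stands highest at 182, and the 4 X-linked genes lie among the lowest 7.

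By role, the highest medians in control were those of recycling and plasma membrane Rabs (114.9 ± 7.90, 9 genes) and early endosomal Rabs (109.6 ± 4.61, 10 genes). ER and Golgi Rabs had 102.3 ± 3.74 (16 genes), cilium and other Rabs 103.8 ± 11.9 (5 genes) and late endosomal and lysosomal Rabs 94.8 ± 6.74 (7 genes; SD over the 3 libraries). The 8 Rabs of synaptic vesicles and regulated secretion had the lowest median, 82.8 ± 8.30. The highest 4 genes of all, Rab4b, Rab5a, Rab22a and Rab5b, are early endosomal Rabs. Rab5a, which drives fusion of early endosomes, had 165 ± 12.96, Rab22a, a relative that sorts cargo there, 164 ± 29.7, and Rab5b 155 ± 8.75. Rab8a, which carries vesicles to the plasma membrane and the cilium, led the recycling list at 150.0 ± 5.47, and Rab15 was its lowest at 79.4 ± 7.14. Rab18, a Rab of the ER and lipid droplets, led the ER and Golgi list at 137 ± 20.9, and Rab19 closed it at 43.7 ± 15.3. Among secretory Rabs, Rab26 led at 131 ± 4.98, but its summit lies outside the gene and is also inside or within 2 kb of Traf7. Rab27a, which docks secretory granules, had 92.7 ± 15.4, and Rab3a, the main Rab3 of synaptic vesicles, 85.3 ± 14.9. Differences between role lists were not tested.

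Close paralogues often carried unequal levels of the mark. In 13 families with 2 or more members, the ratio of highest to lowest mean was above 1.5 in 5, and in 7 the control libraries of the highest and lowest paralogue did not overlap. In the Rab3 family, Rab3a (85.3 ± 14.9), Rab3b (80.3 ± 8.08) and Rab3d (76.3 ± 10.1) were alike and Rab3c stood lower at 45.6 ± 10.4, a ratio of 1.87. Rab4b stood 1.81 times above Rab4a (101 ± 14.4). Rab5a and Rab5b stood above Rab5c (103 ± 5.23), with 1.59 between Rab5a and Rab5c. By contrast Rab11a and Rab11b, the recycling endosome pair, differed by 1.05 times, Rab2a and Rab2b by 1.08, Rab1a and Rab1b by 1.17 and Rab27a and Rab27b by 1.22, with libraries that overlapped. These ratios compare reads at 1 summit of each gene in the same 3 libraries.

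Of the 2 other families past 1.5, both set an autosomal gene against an X-linked one: Rab39 (92.7 ± 12.6) was 1.90 times Rab39b (48.9 ± 4.74), and Rab33b (114 ± 13.9) was 1.71 times Rab33a (66.6 ± 8.40). All 4 X-linked members, Rab9b, Rab39b, Rab9 and Rab33a, were among the lowest 7 of 55. Their median was 52.3 ± 2.85 (SD, n = 3 libraries), against 104.3 ± 1.85 for the 51 autosomal members, a ratio of 0.501. Over all coding genes with a summit, the median was 47.2 ± 0.513 for 492 X-linked genes and 98.8 ± 1.26 for 14705 autosomal ones, a ratio of 0.478. All mice were male.

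The mark lay close to the start of nearly every Rab gene that had both a start in the RefSeq promoter table and a summit (46 genes). In 44 of them (95.7%, against 88.2% of all coding genes) the strongest summit was within 2 kb of the start, and in 36 of these 44 (81.8%, against 77.4%) it lay downstream, with a median position of 143.5 bp past the start. Among the exceptions, the summit taken for Rab33a also lay inside or within 2 kb of Aifm1, and a weaker summit at its own start held 48.6 ± 10.7 in control. The summit taken for Rab40b also lay inside or within 2 kb of Wdr45b, and its own start held 114 ± 7.98 (SD, n = 3 each). In all, 11 of the 55 summits (20%, against 27.6% of all coding genes) also lay inside or within 2 kb of another coding gene, among them Rab4b (Mia), Rab5b (Cdk2 and Pmel), Rab24 (Prelid1) and Rab6a (Mrpl48). The 55 genes held 574 tested summits in 148 called regions, from 3 to 23 per gene with a median of 10, against 9 for all coding genes.

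Rab promoters were rich in CG dinucleotides. Of the 59 genes, 48 had an entry in the promoter table, a window of 300 bases from 250 before the start to 50 after it. The window held a median of 24.5 CG dinucleotides, against 13 over 17492 protein-coding genes. The observed number exceeded 0.6 of that expected from the base content in 77.1%, against 48.3%. The 17492 genes were taken with or without a summit, each at its first listed start. Of the 48 Rab windows, 46 belonged to genes with a summit, and the start nearest that summit was taken. The shares here and below are therefore not like for like, and coding genes with a summit alone were not compared. Rab23, a repressor of Hedgehog signalling, had the most, 45, and Rab17, which had no summit, the fewest, 5. The GC box GGGCGG (searched on both strands, as were all motifs, none of which contains another) was in 72.9% of Rab windows and 46.3% of all windows. The CCAAT box was in 45.8% and 39.0%, and TATAAA in 6.25% (Rab3b, Rab39b and Rab42) and 13.3%. The cyclic AMP response element TGACGTCA was in 4.17% (Rab5a and Rab25) and 2.34%, the E-box CACGTG in 8.33% and 7.90%, and the ETS motif CCGGAAG in 10.4% and 11.9%. The palindromic NRF1 motif was in none of the Rab windows and in 1.32% of all. These are matches of letters in a window, given as a description.

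Levels of the mark followed CG content loosely across the 46 members with a window and a summit (Pearson r = 0.388, Spearman rho = 0.439), given as a description because the genes share their libraries. The poorest windows, Rab42 with 6 CG dinucleotides, Rab33a with 7 and Rab3b with 8, belonged to genes at 58.1, 66.6 and 80.3 normalised reads. Rab3c, with 11, was at 45.6. The levels of Rab33a (66.6) and Rab40b (116.7) were read away from their windows, at the summits shared with Aifm1 and Wdr45b. The summits at their own starts held 48.6 and 114. The correlation was computed with the shared summits and was not repeated with the own-start values. At the top the orders by level and by CG content differed: Rab4b and Rab22a, with 25 and 27, stood above Rab10, with 43 and a level of 118.9, and Rab5b reached 155 with 15. The X-linked Rab9b was the lowest member with 17.

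**Figure D2:**
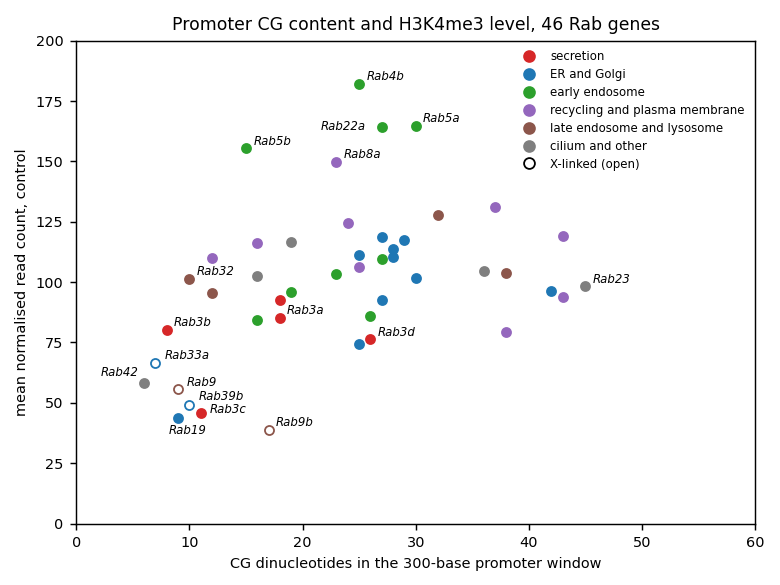
CG dinucleotides in the 300-base promoter window (x axis) against the mean normalised read count in control (y axis) at 46 Rab genes, coloured by role, with X-linked genes open. Genes with fewer than 10 CG dinucleotides lie below 100 reads, and the highest genes lie between 15 and 30. The counts of Rab33a and Rab40b come from summits away from their windows.

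Depth and 2 libraries bear on all comparisons below. Between 4512817 and 10887911 reads fell on the summits of a library, and from 15 to 273 reads lay behind each value of a Rab gene. SDS10 replicate 2 read high: the median deviation of its log2 values from each gene's mean over the 13 libraries was 0.163 over Rab genes and 0.158 over all coding genes, and it was the highest library at 15 of the 55. SDS30 replicate 2 read low, at -0.240 over Rab genes and -0.153 over all coding genes, and was the lowest library at 20 of the 55. All other libraries lay within -0.056 and 0.065 over Rab genes. These 2 libraries were among the 3 shallowest. Counts by direction and by unadjusted p, over all Rab genes and over all regulators together, are given with and without them. Splits by role or regulator list, and counts of groups that did not overlap, are given with them only. All libraries carry 1 batch date. As for the tissue, all 7 excitatory neuron markers had a summit in control (median 44.7), as had 5 of 7 inhibitory markers (35.4), 7 of 7 astrocyte markers (37.8), 5 of 8 oligodendrocyte markers (60.9), 7 of 7 endothelial and mural markers (39.2), 4 of 7 microglia markers (17.7) and 6 of 6 markers of striatal neurons, a neighbouring tissue (59.3). Of 6 liver and muscle markers, Apoa2 and Ckm had one, at 74.1 and 78.2 (median 76.2). This median was above that of every other marker list, so summit level did not set the lists apart by tissue. Of these 2 summits, 1 also lay inside or within 2 kb of another coding gene.

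**Figure D3:**
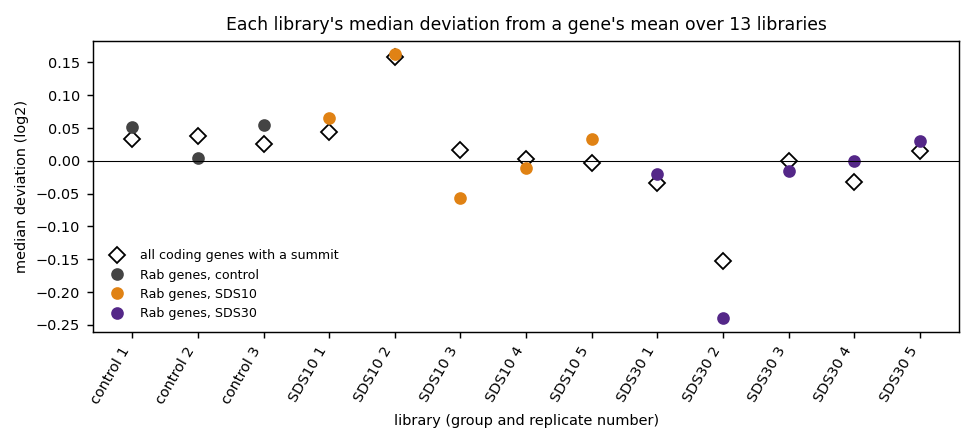
Median log2 deviation of each library (x axis, group and replicate number) from a gene's mean over 13 libraries, over 55 Rab genes (filled circles) and over all coding genes with a summit (open diamonds). Replicate 2 of SDS10 lies highest at 0.163 and replicate 2 of SDS30 lowest at -0.240 for the Rab genes.

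The first comparison asked whether the mark at Rab genes differed after 10 days of defeat. No Rab gene passed the test (limma over all summits, adjusted p = 1.00 for each of the 55), and 0 of 152270 summits (0%) did. edgeR and DESeq2 on the recovered reads also called 0 summits, while 4891 (3.21%), 4599 and 5410 summits had an unadjusted p under 0.05 in limma, edgeR and DESeq2. The median log2 difference over Rab genes was 0.02, against 0.01 over all coding genes, with 30 of 55 members higher (54.5%, against 53.3%). An unadjusted p under 0.05 was seen at 2 of 55 (3.64%, against 2.8%), Rab3c higher (1.78% of coding genes) and Rab27a lower (1.03%). At none of the 55 did the 3 control and 5 SDS10 libraries fail to overlap, against 2.87% of coding genes. The 95% interval of a member's difference had a median half-width of 0.336, and 54 of 55 intervals lay within a log2 difference of 1 either way.

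The 2 extremes of this comparison were both secretory Rabs and pointed in opposite directions. The Rab3c summit is at position 110280061 of chromosome 13 (mm10), 145 bp past the start. At Rab3c, the control libraries held 35.6, 56.5 and 44.7 normalised reads, the SDS10 libraries 66.4, 84.7, 55.5, 77.9 and 64.2, and the SDS30 libraries 83.0, 45.3, 64.2, 51.3 and 45.7. Only the highest control library (56.5) reached into the SDS10 range, past the lowest SDS10 library (55.5). The SDS10 mean of 69.8 ± 11.5 was above the control mean of 45.6 ± 10.4 (SD, n = 5 and 3), a log2 difference of 0.61 ± 0.22 (SE; 95% interval 0.17 to 1.06; limma, unadjusted p = 0.00862, adjusted p = 1.00). Without replicate 2 of SDS10 and SDS30 it was 0.54 (unadjusted p = 0.0162). In SDS30 the difference was 0.32 ± 0.22, with libraries that overlapped those of both other groups. At Rab27a, the control libraries held 110.4, 85.1 and 82.5 normalised reads, the SDS10 libraries 56.6, 69.2, 84.7, 55.9 and 92.7, and the SDS30 libraries 65.0, 76.5, 91.5, 69.3 and 81.9. Its 3 lowest SDS10 libraries lay below every control library and the other 2 lay among them. The difference was -0.38 ± 0.19 in SDS10 (limma, unadjusted p = 0.0499, adjusted p = 1.00) and -0.27 ± 0.19 in SDS30. Of the 8 Rab27a summits, 4 were lower in SDS10 (median 0.04) and 5 in SDS30 (median -0.01).

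Other secretory Rabs lay on either side of 0. At Rab37, the control libraries held 122, 68.6 and 92.8 normalised reads, the SDS10 libraries 85.3, 57.9, 65.0, 74.5 and 88.6, and the SDS30 libraries 74.4, 65.6, 103, 83.8 and 73.2. Control replicate 1 alone stood high, and the groups overlapped. The differences at Rab37, whose summit lies outside the gene and inside or within 2 kb of Slc9a3r1, were -0.32 ± 0.19 in SDS10 and -0.21 ± 0.19 in SDS30. Without control replicate 1 they were -0.12 and -0.01, and without control replicate 2, the lowest, -0.53 and -0.42. At Rab27b, the control libraries held 69.2, 84.3 and 74.5 normalised reads, the SDS10 libraries 62.3, 72.0, 50.8, 72.8 and 57.7, and the SDS30 libraries 77.5, 42.2, 40.0, 71.9 and 69.6. Its difference was -0.27 ± 0.21 in SDS10 and -0.38 ± 0.21 in SDS30, and 2 SDS30 libraries stood apart from the other 3 on the low side. The Rab27b summit lies far inside the gene, and at the strongest summit near a gene end the SDS10 difference was 0.20. For the secretory list as a whole, 3 of 8 were higher in SDS10 and 5 lower, with a median of -0.10, against 0.01 over all coding genes.

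Rab3a, Rab3b and Rab3d, the other Rab3 genes, had differences whose 95% intervals all held 0. At Rab3a, the control libraries held 99.2, 69.5 and 87.1 normalised reads, the SDS10 libraries 89.4, 114, 75.3, 84.7 and 91.9, and the SDS30 libraries 75.2, 117, 105, 101 and 93.5. All 3 groups overlapped, with a difference of 0.10 ± 0.17 in SDS10 and 0.20 ± 0.17 in SDS30. At Rab3b, the control libraries held 74.1, 77.3 and 89.4 normalised reads, the SDS10 libraries 82.8, 70.6, 68.7, 62.7 and 82.1, and the SDS30 libraries 85.4, 62.5, 47.3, 73.6 and 75.4. The lowest value, 47.3, was in SDS30, and the differences were -0.13 ± 0.19 and -0.24 ± 0.19. At Rab3d, the control libraries held 79.0, 65.2 and 84.8 normalised reads, the SDS10 libraries 75.5, 103, 77.2, 79.6 and 100.0, and the SDS30 libraries 64.2, 73.4, 114, 84.7 and 83.3. Here the differences were 0.18 ± 0.18 and 0.12 ± 0.18, and the SDS30 libraries spanned both other groups. The 95% intervals at Rab3a were -0.25 to 0.44 in SDS10 and -0.14 to 0.55 in SDS30.

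After Rab3c, the largest positive differences in SDS10 were those of Rab18 and Rab5b. At Rab18, the control libraries held 159, 136 and 117 normalised reads, the SDS10 libraries 143, 162, 167, 173 and 171, and the SDS30 libraries 143, 103, 124, 148 and 115. Of the 5 SDS10 libraries, 4 lay above every control library. The difference was 0.25 ± 0.14 (limma, unadjusted p = 0.0723, adjusted p = 1.00). At Rab5b, the control libraries held 164, 156 and 147 normalised reads, the SDS10 libraries 179, 192, 205, 178 and 149.6, and the SDS30 libraries 157, 147, 169, 172 and 179.7. Again 4 of 5 SDS10 libraries lay above the control range, with a difference of 0.21 ± 0.12. The Rab5b summit also lies inside or within 2 kb of Cdk2 and Pmel. At Rab5a, the control libraries held 169.8, 175 and 150.2 normalised reads, the SDS10 libraries 177, 152, 129, 113 and 149.6, and the SDS30 libraries 151, 108, 181, 129 and 162. At Rab5a, its close relative, the difference was -0.20 ± 0.15 in SDS10 and -0.19 ± 0.15 in SDS30, and both defeated groups spanned the control range. At Rab22a, the control libraries held 157, 139 and 197 normalised reads, the SDS10 libraries 138, 171, 176, 156 and 145, and the SDS30 libraries 131, 153, 182, 138 and 142. Control replicate 3 was its highest library of all, and the differences were -0.06 ± 0.13 and -0.13 ± 0.13.

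By role in SDS10, early endosomal Rabs were split 5 and 5 (median -0.02), ER and Golgi Rabs 10 higher and 6 lower (0.02), recycling Rabs 4 and 5 (-0.04), late endosomal Rabs 3 and 4 (-0.05), and all 5 cilium and other Rabs were on the positive side (0.09). Without replicate 2 of SDS10 and SDS30, 23 of the 55 were higher and the median was -0.04 (all coding genes -0.02). Rab23, of the cilium and other list, was then at -0.06. Then 2 members had an unadjusted p under 0.05, Rab3c and Rab8a (3.64%, against 4.82% of coding genes). In the same comparison, with all libraries, the marker lists, with no member called, had medians of 0.06 for excitatory neurons, -0.32 for inhibitory neurons, 0.12 for oligodendrocytes, 0.24 for astrocytes, 0.23 for microglia and 0.0045 for striatal neurons (3 of 6 higher). Without replicate 2 of SDS10 and SDS30 these medians were, in the same order, -0.14, -0.14, 0.12, 0.28, 0.19 and -0.06 (2 of 6 higher). The endothelial and mural list had -0.0018 with all libraries and 0.03 without the 2. Liver and muscle markers had -0.23 (2 of 2 lower) and -0.20 (1 of 2 lower). With all libraries, 4 of 5 inhibitory markers were lower, while Slc32a1 was at 0.64. Of these 5, 1 was higher and 1 lower at an unadjusted p under 0.05 (limma), as were 1.78% and 1.03% of coding genes. The part of cell composition in the Rab values was not tested.

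**Figure D4:**
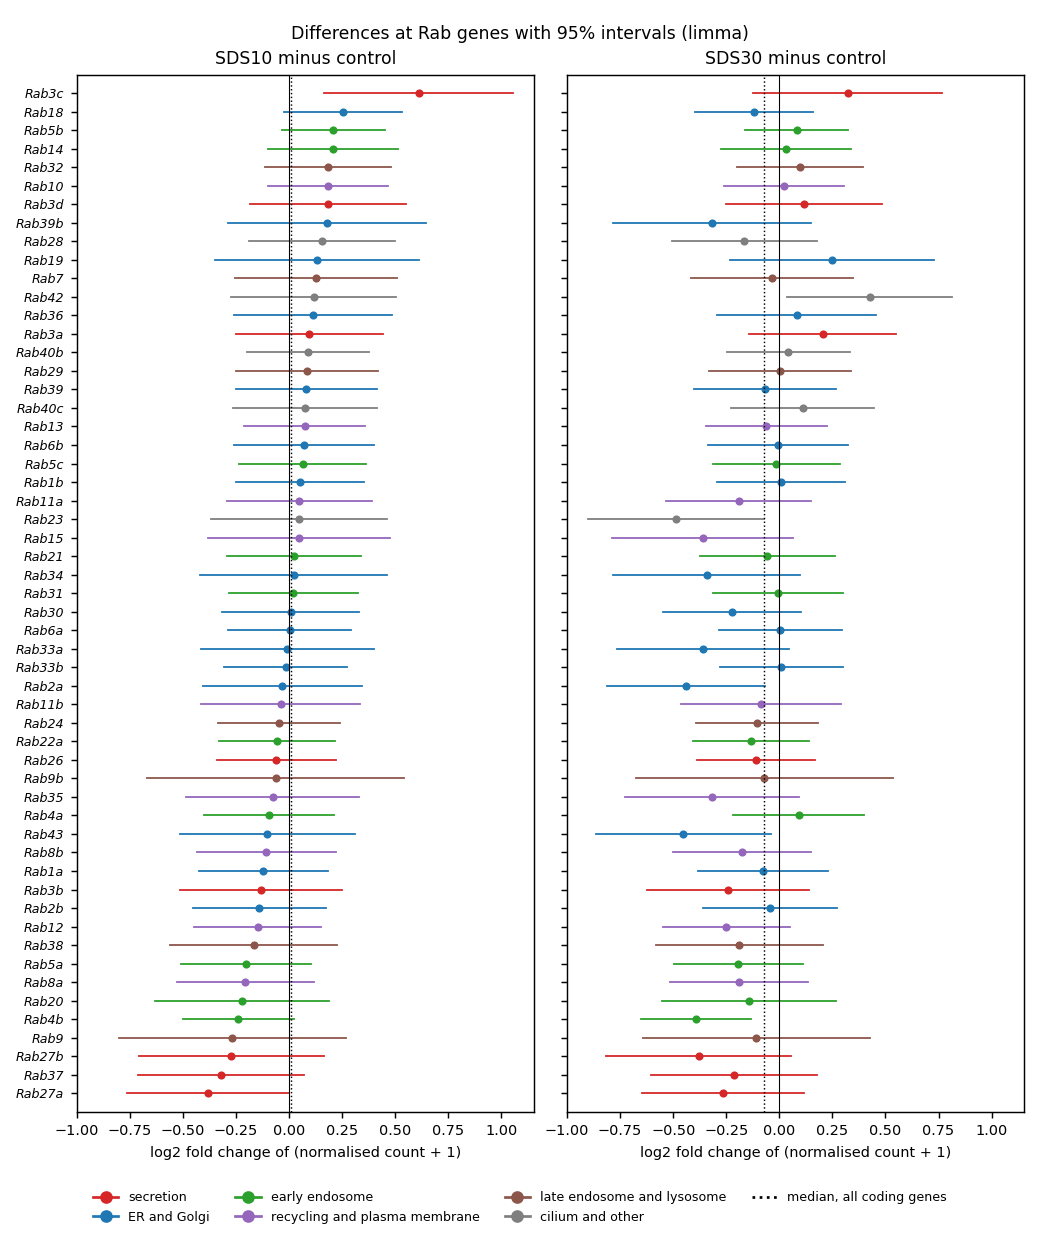
log2 fold change of (normalised count + 1) at 55 Rab genes with 95% intervals from limma, SDS10 minus control (left) and SDS30 minus control (right), ordered by the left panel and coloured by role. The dotted line is the median of all coding genes, 0.01 and -0.07. Rab3c lies highest on the left at 0.61, and Rab23 lowest on the right at -0.49.

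The second comparison asked the same after 30 days. Again no Rab gene passed (limma, adjusted p = 1.00 for each), and 0 of 152270 summits (0%) did in limma, edgeR or DESeq2. An unadjusted p under 0.05 was found at 5194 summits (3.41%) by limma, 4933 by edgeR and 5753 by DESeq2. The values leaned low, as did those of all coding genes at their strongest summit. The median log2 difference was -0.08 (all coding genes -0.07), with 38 of 55 lower (69.1%, against 65.9%). After cyclic loess scaling, which levels the libraries across the range of intensities, 29 of 55 were lower (52.7%, against 51.4%) and the median was -0.01. An unadjusted p under 0.05 was seen at 5 of 55 (9.09%, against 4.91%): Rab4b, Rab2a, Rab23 and Rab43 lower (4.41% of coding genes were) and Rab42 higher (0.5% were). Groups did not overlap at 1 of 55 (1.82%, against 3.69%), Rab15, which was lower (3.11% of coding genes). All 55 intervals lay within a log2 difference of 1. SDS10 and SDS30 were compared with the same 3 control libraries, so the 2 sets of differences are not independent.

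Rab4b, the highest member in control, had the smallest p in SDS30. Its rank and its difference rest on the same 3 control libraries and are not independent. Its summit is at position 27178764 of chromosome 7 (mm10), 119 bp past the start. At Rab4b, the control libraries held 191, 142 and 213 normalised reads, the SDS10 libraries 138, 155, 152, 156 and 160.2, and the SDS30 libraries 147, 123, 139, 136 and 138. Of the SDS30 libraries, 4 lay below every control library and replicate 1 (147) passed the lowest control library (142). The mean was 182 ± 36.1 in control and 137 ± 8.59 in SDS30 (SD, n = 3 and 5), a log2 difference of -0.39 ± 0.13 (95% interval -0.65 to -0.13; limma, unadjusted p = 0.0043, adjusted p = 1.00), and SDS10 lay between at 152 ± 8.57. Without replicate 2 of SDS10 and SDS30 it was -0.36 (unadjusted p = 0.006). The summit also lies inside or within 2 kb of Mia, and over the 10 summits of Rab4b the differences ran from -0.39 to 0.30 with a median of -0.02. Over the early endosomal list the median was -0.03, with 7 of 10 lower.

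Rab2a and Rab43, both Rabs of the Golgi, and Rab23 had the largest negative differences after 30 days. At Rab2a, the control libraries held 129, 127 and 104 normalised reads, the SDS10 libraries 116, 175, 102, 105 and 101, and the SDS30 libraries 91.6, 59.4, 84.1, 104 and 109. SDS10 replicate 2 was the highest library and SDS30 replicate 2 the lowest, and 3 SDS30 libraries lay below every control library. The SDS30 difference was -0.44 ± 0.18 (limma, unadjusted p = 0.0222, adjusted p = 1.00) and without the 2 libraries -0.30 (unadjusted p = 0.0412). Of the 11 Rab2a summits, 6 were lower in SDS30, with a median of -0.03. At Rab43, the control libraries held 109, 123 and 98.6 normalised reads, the SDS10 libraries 127, 126, 68.7, 86.4 and 118, and the SDS30 libraries 95.5, 51.5, 93.6, 70.2 and 101. SDS30 replicate 2 was again the lowest, and the difference of -0.45 ± 0.20 (limma, unadjusted p = 0.0327) was -0.30 (unadjusted p = 0.0965) without the 2 libraries. At Rab23, the control libraries held 99.2, 106 and 89.4 normalised reads, the SDS10 libraries 114, 138, 68.7, 103 and 95.1, and the SDS30 libraries 100.2, 46.9, 67.3, 62.5 and 82.6. SDS30 replicate 1 (100.2) stood inside the control range and the other 4 below it. The difference was -0.49 ± 0.20 (limma, unadjusted p = 0.0229), and without the 2 libraries -0.35 (unadjusted p = 0.0546).

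Rab15, an endosomal Rab enriched in neurons, was the only member whose SDS30 libraries all lay below all control libraries. Its summit is at position 76822328 of chromosome 12 (mm10), 196 bp past the start. At Rab15, the control libraries held 78.3, 73.0 and 87.1 normalised reads, the SDS10 libraries 73.0, 136, 52.7, 77.9 and 90.3, and the SDS30 libraries 52.5, 64.0, 72.6, 53.9 and 66.7. The closest pair was 72.6 in SDS30 and 73.0 in control, while SDS10 spanned both. The difference was -0.36 ± 0.21 (limma, unadjusted p = 0.0949, adjusted p = 1.00) and without the 2 libraries -0.38, and 9 of its 11 summits had the same sign. Of the recycling list, 8 of 9 were lower in SDS30, with a median of -0.19. At Rab11a, the control libraries held 113, 126 and 109 normalised reads, the SDS10 libraries 131, 151, 101, 112 and 111, and the SDS30 libraries 115, 78.1, 117, 78.7 and 129. The lowest 2 libraries were in SDS30, and the difference of -0.19 ± 0.17 had a 95% interval of -0.53 to 0.15.

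On the positive side in SDS30 were Rab42, Rab3c and Rab19, all among the lowest members in level. At Rab42, the control libraries held 76.2, 44.3 and 53.9 normalised reads, the SDS10 libraries 63.2, 66.3, 62.1, 66.1 and 51.2, and the SDS30 libraries 68.1, 82.8, 72.6, 89.8 and 71.0. Control replicate 1 (76.2) lay inside the SDS30 range and the other 2 below it, and the difference was 0.43 ± 0.19 (limma, unadjusted p = 0.0325), or 0.40 (unadjusted p = 0.0474) without the 2 libraries. At Rab19, the control libraries held 60.8, 31.3 and 39.0 normalised reads, the SDS10 libraries 49.2, 38.1, 41.4, 55.9 and 48.0, and the SDS30 libraries 44.6, 54.7, 66.3, 50.5 and 38.4. Control alone spanned nearly all other libraries, and the difference was 0.25 ± 0.24. Over all of its summits summed, Rab19 had -0.04 in place of 0.25.

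Rab1a, Rab7 and Rab9b lay near 0 in SDS30. At Rab1a, the control libraries held 125, 114 and 117 normalised reads, the SDS10 libraries 114, 121, 111, 81.3 and 123, and the SDS30 libraries 110.4, 103, 110.4, 139 and 103. For this ER to Golgi Rab the SDS30 difference was -0.08 ± 0.15, and 1 library each stood apart in SDS10 (81.3) and SDS30 (139). At Rab7, the control libraries held 90.1, 111 and 110.0 normalised reads, the SDS10 libraries 98.4, 149.6, 105, 105 and 113, and the SDS30 libraries 109.6, 62.5, 122, 89.8 and 138. The late endosomal Rab7 had -0.04 ± 0.19, with SDS30 spread from 62.5 to 138. At Rab9b, the control libraries held 42.6, 34.7 and 39.0 normalised reads, the SDS10 libraries 43.5, 60.7, 22.6, 35.6 and 32.5, and the SDS30 libraries 47.0, 23.4, 32.6, 29.1 and 63.8. Rab9b, with 15 to 88 reads a library, had -0.07 ± 0.30 and the widest interval among the named members, -0.68 to 0.53. Over the late endosomal list, 5 of 7 were lower in SDS30 with a median of -0.07. ER and Golgi Rabs were lower in 11 of 16 (-0.07), secretory Rabs in 5 of 8 (-0.16) and cilium and other Rabs in 2 of 5 (0.04).

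**Figure D5:**
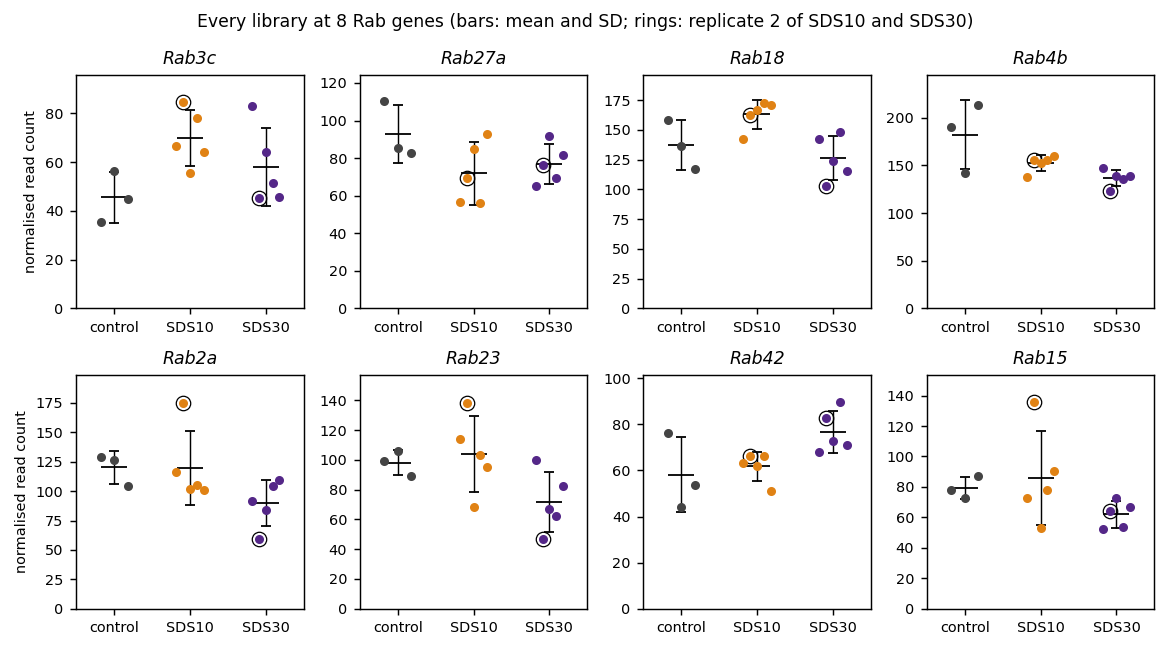
Normalised read count (y axis) in every library at 8 Rab genes, with group mean and SD as bars and rings around replicate 2 of SDS10 and of SDS30. The control and SDS30 points do not overlap at Rab15 (control from 73.0, SDS30 up to 72.6) and overlap at the other 7.

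Without the 2 libraries that stood apart, 33 of 55 members were lower in SDS30 (60.4% of all coding genes), the median was -0.04 (all coding genes -0.04), and an unadjusted p under 0.05 was left at 3 (5.45%, against 4.22%), Rab2a, Rab42 and Rab4b. Summed over all summits of a gene, the median over Rab genes was 0.01 in SDS10 and -0.03 in SDS30. With all libraries, the marker lists in SDS30 had medians of -0.10 for excitatory neurons, 0.23 for inhibitory neurons, 0.18 for oligodendrocytes, 0.02 for astrocytes, 0.33 for microglia, 0.05 for endothelial and mural cells and -0.12 for striatal neurons (5 of 6 lower), with none called. Without the 2 libraries these medians were, in the same order, -0.09, 0.17, 0.01, 0.03, 0.21, -0.03 and -0.06 (5 of 6 lower). Their part in the Rab values was not tested.

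The third comparison set SDS30 against SDS10. No Rab gene passed (limma, lowest adjusted p = 0.963), nor did any of 152270 summits (0%) in limma, edgeR or DESeq2. An unadjusted p under 0.05 was found at 7795 summits (5.12%) by limma, 6838 by edgeR and 7795 by DESeq2. The median difference was -0.08, as over all coding genes, with 41 of 55 lower (74.5%, against 68.4%). After cyclic loess scaling the median was 0.02, on the other side of 0, with 23 of 55 lower (41.8%, against 50.2%). An unadjusted p under 0.05 was seen at 7 of 55 (12.7%, against 9.74%), all lower (9.03% of coding genes were): Rab18 (-0.37 ± 0.12, unadjusted p = 0.00357), Rab23 (-0.53 ± 0.18), Rab39b (-0.49 ± 0.20), Rab2a (-0.41 ± 0.16), Rab15 (-0.41 ± 0.18), Rab33a (-0.35 ± 0.17) and Rab28 (-0.32 ± 0.15). These 7 were named after their values were seen. The 2 libraries that stood apart face each other here, and without them only Rab18 was left (1.82%, against 4.91%), at -0.30 (unadjusted p = 0.0144). The other 6 were at -0.34 (Rab39b), -0.28 (Rab23), -0.24 (Rab15), -0.21 (Rab33a), -0.13 (Rab28) and -0.13 (Rab2a), and 30 of 55 members were lower (54.5%, against 57.3%), with a median of -0.02. At Rab18 the SDS10 mean was 163 ± 12.0 and the SDS30 mean 127 ± 18.7 (SD, n = 5 each), with 4 of 5 SDS30 libraries below all SDS10 libraries. Only 2 of the 6 Rab18 summits shared this sign, and their median over all 6 was 0.04. The neighbouring summit, with 129.7 ± 11.3 in SDS10 and 130.3 ± 9.23 in SDS30, had 0.01. At Rab42 alone (1.82%, against 1.12%, or 0.112% on the higher side) the groups did not overlap, with SDS10 up to 66.3 and SDS30 from 68.1. Of the markers, none was called (limma). The inhibitory list had a median of 0.45, with 4 of 5 higher. Of its members, 2 were higher at an unadjusted p under 0.05 (limma), as were 107 of 15201 coding genes. The 9.74% of coding genes in either direction were mostly lower (9.03%). The striatal list had a median of -0.14 (6 of 6 lower) and the astrocyte list -0.18 (6 of 7 lower). Without the 2 libraries the inhibitory, striatal and astrocyte medians were 0.21, -0.04 (5 of 6 lower) and -0.20. An unadjusted p under 0.05 (limma) was then seen at 2 of 5 inhibitory markers (40%, against 4.91% of coding genes in either direction). With all libraries, the excitatory list had 0.05, oligodendrocytes 0.05, microglia 0.0051 and endothelial and mural cells 0.09. Without the 2 libraries these medians were, in the same order, 0.10, -0.02, -0.06 and -0.09. Their part in the Rab values was not tested.

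The genes that regulate Rabs or read their state also had no member past the test. Of 133 listed prenylation enzymes and GDP dissociation inhibitors, exchange factors, GTPase-activating proteins and effectors, 129 had a summit, and none had an adjusted p of 0.05 or less in any comparison (limma). In SDS10, 81 were higher and 48 lower (median 0.04), with an unadjusted p under 0.05 at 4 (3.10%, against 2.8% of coding genes). In SDS30, 89 were lower (69.0%, against 65.9%; median -0.07), with 9 at an unadjusted p under 0.05 (6.98%, against 4.91%). The escort and delivery list (7 genes) had the highest control median, 118 ± 17.0, with Rabggtb, a subunit of the enzyme that attaches the lipid anchor, at 153 ± 12.0 and the X-linked escort gene Chm lowest at 50.3 ± 6.08. In SDS10 its extremes were Gdi2, which extracts Rabs from membranes, at 0.15 ± 0.15, and Chm at -0.24 ± 0.22. In SDS30 they were Rabac1 at 0.07 ± 0.14 and Rabif at -0.13 ± 0.13.

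Exchange factors were 19 higher and 10 lower in SDS10 (median 0.07) and 6 higher and 23 lower in SDS30 (-0.13). Rin1, an exchange factor for Rab5, was the highest in SDS10 at 0.47 ± 0.30, and Gapvd1, also a Rab5 exchange factor, the lowest in SDS10 at -0.37 ± 0.17 and in SDS30 at -0.36 ± 0.17. Gapvd1 had 104 ± 8.50 in control, 80.4 ± 9.76 in SDS10 and 81.1 ± 14.4 in SDS30, and its libraries in both groups lay below all control libraries, which were the same 3 in both comparisons. Groups did not overlap at 5 of the 129 regulators in SDS10 (3.88%, against 2.87% of coding genes), Gapvd1, Gorab, Inpp5b, Tbc1d32 and Tbc1d9, and at 3 in SDS30 (2.33%, against 3.69%), Gapvd1, Ccz1 and Myo5b. Rab3il1 was the highest in SDS30 at 0.31 ± 0.14. GTPase-activating proteins were 27 higher and 11 lower in SDS10 (0.09), led by Rabgap1l at 0.46 ± 0.21 with Tbc1d12 lowest at -0.25 ± 0.16, and 18 higher and 20 lower in SDS30 (-0.03), led by Tbc1d25 at 0.37 ± 0.26 with Tbc1d8 lowest at -0.52 ± 0.20. Effectors were 30 higher and 25 lower in SDS10 (0.03), with Gorab highest at 0.35 ± 0.15 and Rims4, of the presynaptic active zone, lowest at -0.43 ± 0.31. In SDS30 they were 12 higher and 43 lower (-0.09), with Rph3a, a Rab3 effector on synaptic vesicles, highest at 0.17 ± 0.28 and Myo5b, a motor that carries Rab11 vesicles, lowest at -0.69 ± 0.23 (unadjusted p = 0.00583, adjusted p = 1.00). In SDS30 against SDS10, 100 of the 129 were lower (77.5%, against 68.4% of coding genes), with 16 at an unadjusted p under 0.05 (12.4%, against 9.74%). Without replicate 2 of SDS10 and SDS30, 89 of the 129 were lower in this comparison (69.0%, against 57.3%), with 7 at an unadjusted p under 0.05 (5.43%, against 4.91%). Against control, 69 were then higher and 60 lower in SDS10 (46.5% lower, against 53.5%). An unadjusted p under 0.05 (limma) was seen at 6 (4.65%, against 4.82%). In SDS30, 45 were then higher and 84 lower (65.1% lower, against 60.4%), with 6 at an unadjusted p under 0.05 (4.65%, against 4.22%).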

How the data were processed

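The authors deposited 1 table of normalised signal per peak summit and library, for a peak set shared by all libraries (153207 summits in 48695 regions). The tools named in the submitters' processing notes are Bowtie2, Trimmomatic, DESeq2 and MACS2, and the builds are mm10 and GRCm38.p5. No source used here gives versions, settings, duplicate handling or the counting window. The peak score that the authors deposited was not used. All normalised values were whole multiples of 1 step per library (100%, tolerance 0.001 reads), which gave back the reads. No molecular identifiers were used, so PCR copies of a molecule may count as reads.

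Differences come from limma 3.58.1 (R 4.3.3) on log2(value + 1) with a variance trend, over 152270 summits kept by edgeR's filterByExpr (937 left out), with 1 mean per group, all 13 libraries and Benjamini-Hochberg adjustment at 0.05. This scale understates changes of low summits. edgeR 4.0.16 and DESeq2 1.42.0 ran on the recovered reads as alternatives. The limma step was tested on simulated data. Genes came from the RefSeq table (GRCm38.p6, the same primary assembly as mm10), and a summit is the strongest inside a gene or within 2 kb of it. The median distance between neighbouring summits was 199 bp, so 1 fragment can count at more than 1.

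The members and lists were chosen with earlier results of these data known. Values in every library are given for the 3 largest differences in each direction in SDS10 and in SDS30 against control, members whose groups do not overlap in these, the 3 highest and 3 lowest members in control, and Rab1a, Rab3a, Rab3b, Rab3c, Rab3d, Rab5a, Rab7, Rab11a and Rab27b. Of the regulator lists, the gene with the largest change in each direction is named. The comparison of SDS10 and SDS30 names members by unadjusted p, chosen after their values were seen. Alternatives were other scaling, filters, tests, pseudocounts, definitions of a gene's summit, a replicate block, leaving out each library in turn, and, added after seeing the data, leaving out replicate 2 of SDS10 and of SDS30 together.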

Additional observations from a re-analysis of the deposited data

Results flagged for a closer look

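Among 44 sets of 5 libraries (SDS10 or SDS30) at the named Rab genes, 5 held a library far from the other 4, and chance alone gives about 1 such set in 20. At Rab1a, SDS10 replicate 4 had 81.3 normalised reads against 111 to 123 in the others, and SDS30 replicate 4 had 139 against 103 to 110.4. At Rab2a, SDS10 replicate 2 had 175 against 101 to 116. At Rab7, SDS10 replicate 2 had 149.6 against 98.4 to 113. At Rab42, SDS10 replicate 5 had 51.2 against 62.1 to 66.3. Of these 5, the values at Rab2a and Rab7 fall in SDS10 replicate 2, the library that read high over all coding genes, and the value at Rab1a in SDS10 replicate 4 in the shallowest library.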

How the results depend on the processing

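The count of Rab genes called was 0 in each comparison under every alternative run. The median differences ran from -0.04 to 0.05 in SDS10, -0.12 to -0.04 in SDS30 and -0.11 to -0.04 in SDS30 against SDS10 when 1 library was left out, and were 0.01, -0.01 and 0.02 after cyclic loess, the last 2 outside those ranges. Under loess the lean to lower values was not seen: 29 of 55 members were lower in SDS30 and 23 of 55 in SDS30 against SDS10, beside 38 and 41. The control median, 101 to 103 with 1 library left out, was 99.3 without summits that also lie in or near another coding gene and 598 when all summits of a gene were summed. Replicate numbers did not pair the libraries (11 same-numbered pairs, r from -0.194 to 0.137, 0 of 13 libraries closest to their own number), and with the replicate block the medians were 0.01, -0.09 and -0.08 with 0 genes called.

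Single genes turned sign under some alternatives, among them 4 with differences of at least 0.20 in size: Rab27b (-0.27) and Rab4b (-0.24) in SDS10 and Rab19 (0.25) and Rab3a (0.20) in SDS30. In SDS30, Rab7 gave 0.040 with DESeq2, 0.050 with edgeR and 0.049 after loess, Rab9b 0.045 with DESeq2 and 0.053 with edgeR, and Rab1a 0.012 after loess. Without replicate 2 of both defeated groups, SDS10 values were -0.034 at Rab11a, -0.133 at Rab15 and -0.064 at Rab23, and SDS30 values 0.135 at Rab7 and 0.087 at Rab9b. Near gene ends only, Rab27b had 0.198 in SDS10. Summed over all summits, SDS10 values were -0.077 at Rab19, 0.116 at Rab1a, 0.053 at Rab22a, 0.026 at Rab27b, 0.0072 at Rab2a, -0.116 at Rab3a and 0.0015 at Rab4b, and SDS30 values 0.103 at Rab18, -0.039 at Rab19, 0.122 at Rab1a, 0.051 at Rab22a, -0.046 at Rab3a, 0.023 at Rab7 and 0.188 at Rab9b. With 1 library left out, SDS10 values ran from -0.034 to 0.111 at Rab11a, -0.133 to 0.203 at Rab15, -0.077 to 0.392 at Rab19, -0.170 to 0.080 at Rab22a, -0.064 to 0.186 at Rab23, -0.175 to 0.025 at Rab2a, -0.042 to 0.212 at Rab3a, -0.058 to 0.327 at Rab42, -0.180 to 0.040 at Rab43 and -0.236 to 0.111 at Rab9b, and SDS30 values from -0.248 to 0.0027 at Rab22a, -0.149 to 0.135 at Rab7 and -0.265 to 0.087 at Rab9b. The cause was not tested. At 15 to 273 reads a value, the unadjusted 95% interval of a single gene had a median half-width of 0.336 against control and 0.291 in SDS30 against SDS10. The test adjusted over all summits did not call larger differences, such as 0.61 at Rab3c.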

Other observations

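Within a Rab gene, the summits other than the strongest one often went another way. At Rab3c, 7 of 8 summits had a positive difference in SDS10, from -0.06 to 0.67 with a median of 0.21. In SDS30 the split was 4 of 8 with a median of 0.00. All 9 summits of Rab43 had a negative difference in SDS10 (median -0.14) and 8 of 9 in SDS30 (-0.16). All 11 summits of Rab15 were lower in SDS30 than in SDS10 (median -0.19). At Rab18, only 1 of 6 summits shared the negative sign of the strongest one in SDS30, with a median of 0.16, and at Rab1a 4 of 12 did, with a median of 0.13. Neighbouring summits can share fragments, so these counts are descriptions. Over all 574 summits of the Rab genes none was called by limma, and an unadjusted p under 0.05 was seen at 15 (2.61%, against 3.21% of all summits) in SDS10, 21 (3.66%, against 3.41%) in SDS30 and 28 (4.88%, against 5.12%) in SDS30 against SDS10.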
